A study of Mus musculus with 14 samples.

Results

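Heart allografts that were tolerized by blocking costimulation were compared at day 70 and at day 7 after transplantation. The arrays were chosen by their titles alone, and they are 6 of the 14 arrays of the series. In both groups a Balb/c heart was placed in a C57/BL6 recipient and the recipient received monoclonal antibody against CD80/86, the ligands through which antigen-presenting cells costimulate T cells. There were 3 arrays at day 7 and 3 at day 70, each of 1 transplanted heart, so that strains and treatment were the same and the time differed. Isografts, which are C57/BL6 hearts in C57/BL6 recipients with no treatment named, gave the change with time without an alloresponse, with 3 arrays at day 7 and 2 at day 70. The labels give no dose or schedule of the antibody and no ages of the mice. They also do not say whether the hearts came from separate operations, so p-values measure only the spread between these arrays, which may be technical. Of the 12422 probe sets that are not controls, 9483 gave a signal above 11 on at least 3 of the 6 arrays and were tested, and they stand for 6874 genes.

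A transplanted heart goes through surgical injury, ischaemia and scar formation in its early weeks, and in an allograft recipient leukocytes enter it as well. T cells that meet antigen without costimulation are poorly activated, which is the basis of tolerance induction with antibodies to CD80 and CD86. B cells that are activated become plasma cells, which secrete antibody and hold very large amounts of immunoglobulin mRNA. Fibroblasts that are activated after injury make collagens, elastic fibre proteins and the enzymes that cross-link them.

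The 6 arrays had closely matched overall signal, with a median of 38.2 to 43.7, and 72.73% to 76.85% of probe sets lay above 11. Correlations of the log2 values were 0.929 to 0.954 within the groups and 0.913 to 0.947 between them. H2-Ea, a class II gene for which C57BL/6 mice carry a null allele, read 408.5, 442.1 and 552 at day 7 and 489, 537.8 and 446 at day 70. No array contradicted its donor strain, which is the same at both days, so these values do not check the day or the treatment. Genes that define heart muscle were high on every array, with a summed signal of 37780 to 67490 over 24 sarcomere genes, whereas 9 lung and thymus markers summed to 270.8 to 339.2. The 3' to 5' signal ratio of the beta-actin control, which increases as RNA degrades, was 1.094, 1.172 and 1.372 at day 7 and 1.688, 1.684 and 1.243 at day 70 (two-sided exact permutation p = 0.2). The same ratio of Gapdh was 0.821, 0.845 and 0.890 at day 7 and 1.127, 1.027 and 0.900 at day 70, without overlap (two-sided exact permutation p = 0.1, the smallest that 3 against 3 arrays allow). Only the Gapdh ratio separated the days, with array 3 nearly equal at 0.890 and 0.900, while the beta-actin ratio overlapped.

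Between day 7 and day 70 only a small set of transcripts passed the test, and most of it was immunoglobulin. With limma and Benjamini-Hochberg adjustment over all 9483 probe sets at 0.05, 7 probe sets (0.0738%) were called, 5 of them higher at day 70 (0.0527%) and 2 lower (0.0211%). The 5 that rose were 1 probe set annotated to Ighm, 3 to the kappa variable gene Igkv10-96 and 1 to several genes, which is left unnamed. The 2 that fell were Apod and Frzb, which encode secreted proteins. At an unadjusted p under 0.05 there were 620 probe sets (6.54%), 297 higher (3.13%) and 323 lower (3.41%), a share near the 5% that the threshold itself lets through. The 3 arrays of day 70 lay entirely above those of day 7 for 487 probe sets (5.14%) and entirely below them for 825 (8.70%). Counted over genes, these were 345 (5.02%) and 601 (8.74%). With the replicate number as a block, 19 probe sets were called (0.200%), 14 of them higher (0.148%), and these include all 7. When the beta-actin ratio entered the fit as a covariate the count was 0, with 500 probe sets at an unadjusted p under 0.05. The fitted differences were then 3.38 on the log2 scale for the brightest Igkv10-96 probe set, 5.19 for Ighm, -2.02 for Frzb and -2.33 for Apod (limma adjusted p = 0.119, 0.1319, 0.5829 and 0.119). The arrays also fall into 2 runs by accession, with 1 array of each tolerizing group in the first. With the run as a block 3 probe sets were called, all immunoglobulin, and in the second run alone, with 2 arrays a group, 0 (714 at an unadjusted p under 0.05). The log2 difference within the first and the second run was 3.14 and 3.94 for the brightest Igkv10-96 probe set, -2.18 and -3.11 for Frzb, and -2.59 and -1.66 for Apod.

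**Figure D1:**
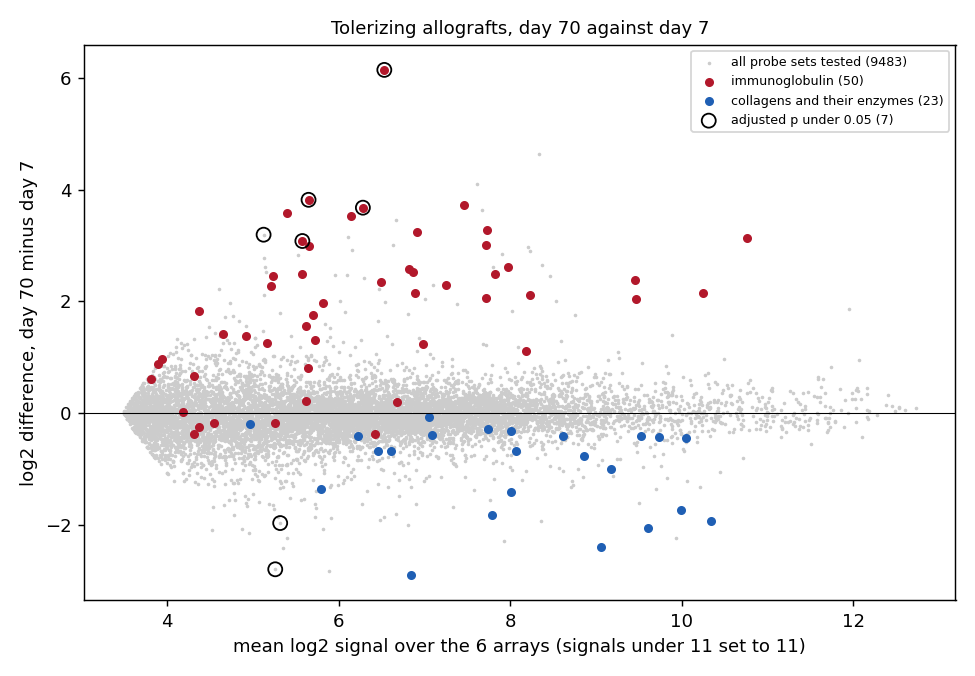
Each point is a probe set, with its mean log2 signal over the 6 tolerizing allograft arrays on the horizontal axis and its log2 difference, day 70 minus day 7, on the vertical axis. Immunoglobulin probe sets (50) reach a log2 difference of 6.14, the 23 genes of collagens and their enzymes all lie below 0, and rings mark the 7 probe sets called.

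Upstream sequences from RefSeq (GRCm38.p6) are shown for the 2 genes that fell, for Col3a1, the collagen with the smallest p, and for Jchain. Jchain was taken for the antibody-secreting programme because the RefSeq promoter table held no immunoglobulin gene. Each is the 150 bases that end just before the annotated start, 5′ to 3′ along the gene's own strand. Capitals mark the letters TATAAA, the core of the TATA box, and ATGCAAAT, the octamer found in immunoglobulin promoters, both searched on both strands.
Frzb, chr2:80447397-80447546, minus strand: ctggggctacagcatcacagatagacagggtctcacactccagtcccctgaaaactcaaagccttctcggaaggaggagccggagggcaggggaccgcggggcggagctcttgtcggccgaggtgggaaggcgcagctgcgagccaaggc
Apod, chr16:31314809-31314958, minus strand: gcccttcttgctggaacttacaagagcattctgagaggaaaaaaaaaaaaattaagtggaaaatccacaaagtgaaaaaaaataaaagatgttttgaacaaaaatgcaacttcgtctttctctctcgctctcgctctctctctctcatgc
Col3a1, chr1:45311388-45311537, plus strand: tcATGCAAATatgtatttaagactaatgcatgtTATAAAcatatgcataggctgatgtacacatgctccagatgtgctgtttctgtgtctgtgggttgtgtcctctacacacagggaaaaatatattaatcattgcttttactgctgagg
Jchain, chr5:88527898-88528047, minus strand: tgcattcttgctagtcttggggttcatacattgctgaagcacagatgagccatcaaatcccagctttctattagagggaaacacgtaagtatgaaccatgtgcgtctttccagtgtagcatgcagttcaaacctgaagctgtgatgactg
Only the Col3a1 window among these 4 held either string, the octamer from base -148 and TATAAA from base -117 before the start. In the same window of 32851 promoters in the table, 7.57% held TATAAA and 0.998% the octamer. A match is a description of the letters in these windows. The probes of the array lie in transcripts and do not read these sequences.

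Immunoglobulin transcripts were the highest-ranking rises at day 70. Ighm encodes the constant region of the IgM heavy chain. The called probe set annotated to Ighm read 6.1, 2.5 and 2.3 at day 7 and 3738, 337.4 and 373.6 at day 70. All 3 arrays of day 7 lay under the floor of 11 and were set to it, which gave a fitted log2 difference of 6.14 (SE 0.79, 95% interval 4.46 to 7.83, limma adjusted p = 0.006313). This probe set passed the filter only through day 70, where it was high. With no filter on low signals none of the 7 probe sets was called, and the limma adjusted p of this one was 0.1625 (0 calls in all, 680 at an unadjusted p under 0.05). The first array of day 70 stood far above the other two, which were close to each other. Without that array the log2 difference was 5.01 (limma adjusted p = 0.009377). Of the 12 Ighm probe sets tested, 5 were separated higher and 7 overlapped, 1 was called, and the log2 differences of the 12 went down to 0.19, 0.02 and -0.38. The brightest of the 12 read 428.1, 319.6 and 308.3 on the day-7 arrays where the called one lay under the floor. Whether the called probe set reads the constant region of IgM was not tested.

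Igkv10-96 is a variable gene of the kappa light chain, the part that contacts antigen. Its brightest probe set read 23.6, 2.1 and 39.7 at day 7 and 387, 159 and 349.7 at day 70. It rose 12.8-fold, from 21.8 ± 18.9 to 299 ± 122 (SD, n = 3 each; log2 3.68, SE 0.45, limma adjusted p = 0.006313). The second array was the lowest in both groups, and the groups stayed apart. The second probe set read 13.9, 1.2 and 15.6 against 277.9, 73.6 and 326.5 (log2 3.82, SE 0.49, limma adjusted p = 0.006313). The dimmest of the 3 read 20.3, 1.0 and 19.8 against 198.4, 67.6 and 199 (log2 3.08, SE 0.47, limma adjusted p = 0.02966). These 3 probe sets have the suffix of sets whose probes match several related genes, so they are not independent and may read other kappa genes. The unnamed probe set read 4.2, 1.0 and 12.7 against 152.4, 46.4 and 165.8 (log2 3.19, SE 0.52, limma adjusted p = 0.03963). The call of the brightest Igkv10-96 probe set held on leaving out any 1 of the 6 arrays (limma adjusted p = 0.003663 to 0.04834). Those of the second one and of Ighm were lost without day-7 array 2 (limma adjusted p = 0.06361 for both). The dimmest Igkv10-96 probe set kept its call only without day-70 array 2 (0.004654), as did the probe set that names no single gene (0.005412).

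**Figure D2:**
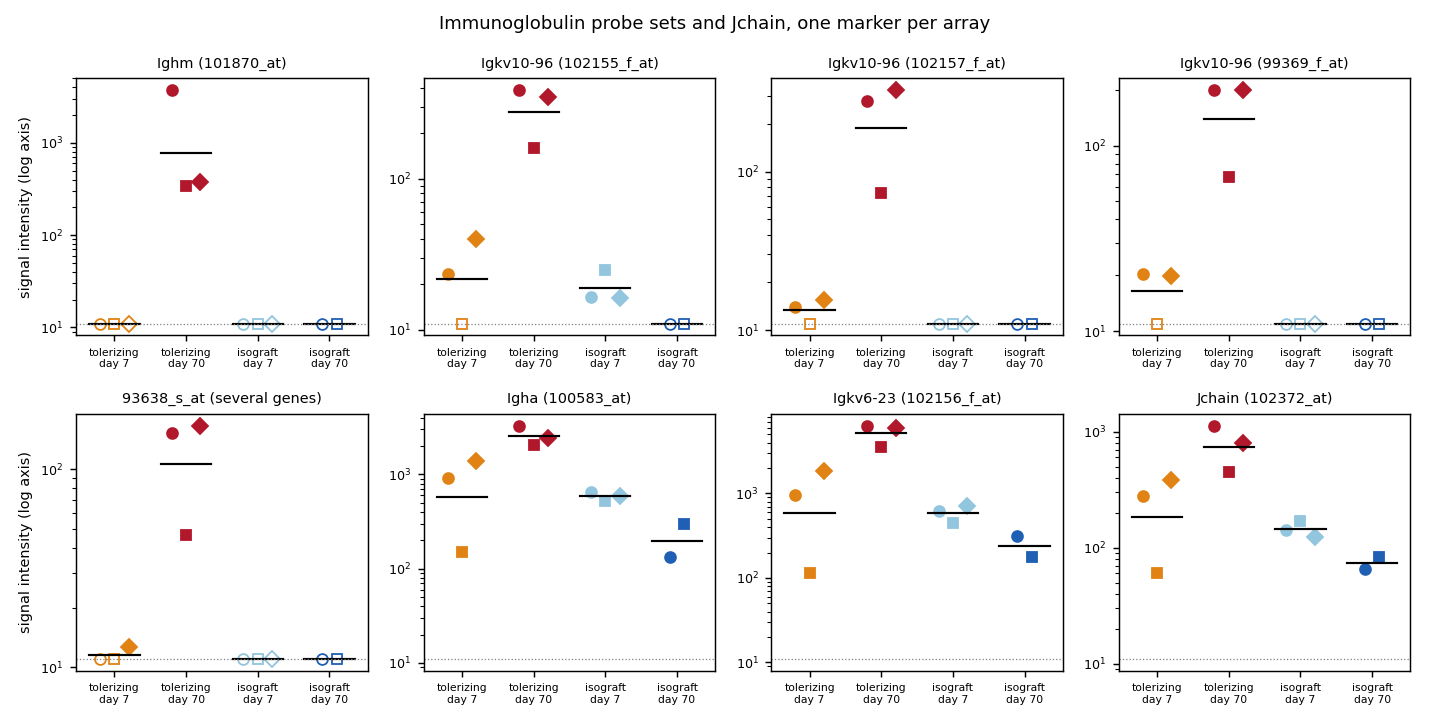
Signal intensity on a log axis for 8 probe sets in tolerizing allografts and isografts at both days. Each marker is 1 array (circle, square and diamond for replicates 1, 2 and 3), open markers lie under the floor of 11 (dotted line) and are drawn at it, and bars are means of the floored log2 values. The square, replicate 2, is the lowest tolerizing allograft of day 70 in all 8 panels, and at day 7 it is drawn at or below the other tolerizing allografts in each panel.

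Brighter immunoglobulin probe sets showed the same order without passing the test. Igha, the constant region of the IgA heavy chain, read 918.6, 148.8 and 1390 at day 7 and 3307, 2056 and 2428 at day 70, with a log2 difference of 2.15 (limma adjusted p = 0.3452). Igkv6-23, the brightest kappa variable probe set here, read 970.1, 114.3 and 1830 against 6372, 3579 and 5915 (log2 3.12, limma adjusted p = 0.2221). A second Ighm probe set read 686.8, 66.5 and 635.8 against 2054, 1108 and 1821 (log2 2.39, limma adjusted p = 0.5007). In each of these 3 the groups were apart, and the low second array of day 7 widened the spread. The brightest Ighm probe set read 428.1, 319.6 and 308.3 against 2846, 394.8 and 2631, where the groups overlapped (log2 2.04, limma adjusted p = 0.4004).

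Igkv9-120 read 117.2, 32.1 and 107.9 at day 7 and 1208, 321.2 and 539.9 at day 70 (log2 3.00, limma adjusted p = 0.07395, with the replicate block 0.02108). Igkv1-133 read 46, 29.4 and 84.8 against 292.8, 195.7 and 385.9 (log2 2.53, limma adjusted p = 0.07395, with the block 0.0312). Igkv6-14 read 89.7, 2.4 and 115.1 against 1095, 202.7 and 1191, and with the block its limma adjusted p was 0.02108. Ighg3, the constant region of the IgG3 heavy chain, had a probe set at 72.5, 9.9 and 75.7 against 612.3, 150.3 and 550.2, with a block adjusted p from limma of 0.04067. A brighter Ighg3 probe set overlapped, at 62.9, 52 and 55.2 against 320.2, 56.2 and 858.2. Probe sets of the same symbol therefore disagreed in level and in order for Ighm and Ighg3.

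Of 50 tested probe sets with a single immunoglobulin symbol, a list defined after the values were seen, 45 had a positive log2 difference and 31 had all 3 day-70 arrays above all 3 of day 7, beside 5.14% of all probe sets. None of the 50 was entirely lower, beside 8.70%. The 50 carry 24 distinct symbols, and many have the same suffix of sets that match several related genes. They are therefore not independent, and their counts are not counts of separate genes. However, 4 of the 31 had no day-7 array above the floor and 11 had only 1 or 2, so day 70 helped them pass the filter, and the first 4 could only count as higher. Among the 31 immunoglobulin probe sets with all 3 day-7 arrays above the floor, 27 were positive and 16 were separated higher, beside 4.80% of all probe sets chosen in that way, and the median log2 difference was 2.04, beside -0.06. Over all 50 the median was 2.08, beside -0.04 for all probe sets. Grouped by annotated symbol alone, it was 2.10 for 22 heavy constant probe sets, 1.75 for 3 heavy variable ones and 2.20 for 24 kappa variable ones. Array 2 was the lowest of day 70 in 29 of the 31 separated probe sets and the lowest of day 7 in 24. Relative to the day-7 means, the list median was 2.73, 0.92 and 2.52 on the 3 arrays of day 70 and 0.38, -0.58 and 0.10 on those of day 7. Without day-70 array 2 there were 40 probe sets called, 21 of them with an immunoglobulin symbol, and without day-7 array 2 there was 1.

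Genes that accompany antibody secretion and B cells differed less evenly. Jchain, which encodes the chain that joins IgM and IgA into polymers, read 276.3, 60.3 and 379.6 at day 7 and 1130, 447 and 802.6 at day 70 (log2 2.00, SE 0.55, limma adjusted p = 0.3415). Cd79b, a signalling chain of the B cell receptor, read 35.8, 11.5 and 23.7 against 108.7, 68.1 and 54.8, with a log2 difference of 1.79, and its partner Cd79a had 0.69. Both were above day 7 on every array without passing the test. Pou2af1, a B cell coactivator, had a log2 difference of 0.94 and was also separated. The B cell surface marker Ms4a1 overlapped, at 66.3, 50.9 and 48.9 against 75.7, 54.5 and 55.5, and so did Xbp1 (log2 0.17), a factor of secretory cells, and Sdc1 (log2 -0.13), a plasma cell surface marker. In the list of 13 tested B and plasma cell genes 0 were called and 5 were separated higher, beside 5.02% of all genes, with a median log2 difference of 0.37. Whether more B lineage cells were present or each held more of this RNA cannot be told apart in whole-heart RNA, and this holds for every gene group here.

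Frzb and Apod were the genes called lower in the main fit. Frzb encodes a secreted antagonist of Wnt ligands. It read 105.2, 86.1 and 114.3 at day 7 and 10.6, 6.8 and 25.3 at day 70, and the groups were far apart. The mean went from 102 ± 14.4 to 14.2 ± 9.77 (SD, n = 3 each), a log2 difference of -2.80 (SE 0.46, limma adjusted p = 0.03963). With 2 of the day-70 arrays under the floor of 11, the fitted 6.97-fold difference may understate the fall. In isografts Frzb read 47.9, 7.7 and 33.8 at day 7 and 7.6 and 7.7 at day 70.

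Apod encodes apolipoprotein D, a secreted carrier of small lipids. It read 54.6, 91.4 and 98.9 at day 7 and 20.9, 23.8 and 16.4 at day 70. It was 3.93-fold lower (log2 -1.97, SE 0.32, limma adjusted p = 0.03963), and the groups were well apart. Isografts read 51.2, 73 and 45.8 at day 7 and 27 and 14.9 at day 70, a log2 difference of -1.47 that was not called. The call of Apod was lost without day-7 array 2 or 3 or day-70 array 1 or 3 (limma adjusted p = 0.1749, 0.1908, 0.118 and 0.2309). That of Frzb was lost on leaving out any array of the 6 but day-70 array 3 (limma adjusted p = 0.05788 to 0.1795). With quantile normalization or median scaling 0 probe sets were called lower. The same held with a floor of 5, a filter on 3 of 14 arrays or the accession run as a block.

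Collagen transcripts stood lower at day 70 as a group, with no member called. Of 23 tested genes of collagens and the enzymes that process them, all 23 had a negative log2 difference and 18 were lower on every day-70 array than on any of day 7, beside 8.74% of all genes. The median log2 difference was -0.68, beside -0.04 for all genes, and it was -0.63, -0.73 and -0.83 on the 3 single arrays of day 70. It was -0.61 to -0.72 when any 1 of the 6 arrays was left out.

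Col3a1, a fibrillar collagen of distensible tissue and early scars, read 2188, 1560 and 1864 at day 7 and 730.7, 376.8 and 626 at day 70 (log2 -1.74, SE 0.34, limma adjusted p = 0.1073). A second Col3a1 probe set read 336.9, 323 and 267.4 against 181.1, 100.4 and 90.7, and its limma adjusted p was 0.02108 with the replicate block. Col1a1 and Col1a2 form type I collagen, the main fibre of scar. Col1a1 read 2596, 2298 and 2721 against 952.4, 362.7 and 824.2 (log2 -1.94, limma adjusted p = 0.3415). Col1a2 read 1920, 1287 and 1632 against 592.3, 236.8 and 390.3 (log2 -2.07, limma adjusted p = 0.36). Col5a2, which regulates the width of collagen fibrils, had a log2 difference of -2.40, Col8a1 -1.84 and Col15a1 -1.42. On the brightest probe set of each of these 6 genes the second array of day 70 was the lowest and the groups did not overlap.

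The enzymes and chaperones of collagen showed the same order. Lox, which cross-links collagen and elastin, read 328, 264 and 353.9 at day 7 and 129.7, 22.3 and 25.3 at day 70 (log2 -2.90, SE 0.75, limma adjusted p = 0.2752). Serpinh1, the collagen chaperone, read 699.3, 958.8 and 816.2 against 404.2, 409.7 and 406.1 (log2 -1.01). Basement membrane collagens differed less, with log2 differences of -0.45 for Col4a1 and -0.44 for Col4a2. The genes of type VI collagen lay between -0.33 and -0.77.

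**Figure D3:**
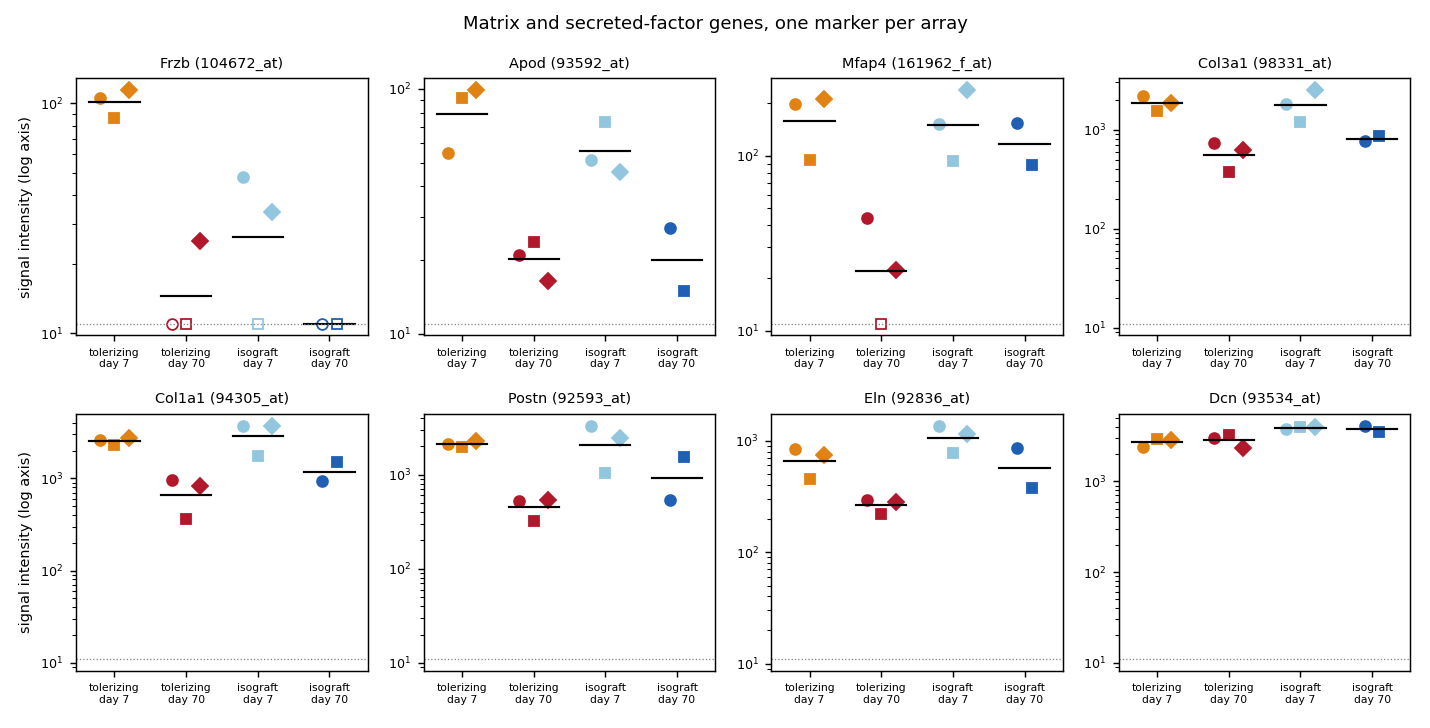
Signal intensity on a log axis for 8 genes of matrix or secreted factors, 1 marker per array with the same symbols and floor as in the plot of immunoglobulin. The tolerizing arrays of day 70 lie below those of day 7 for Frzb, Apod, Mfap4, Col3a1, Col1a1, Postn and Eln, and the groups overlap for Dcn.

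Elastic fibre genes were also lower, and 2 of them passed the test with the block. Mfap4, a microfibril-associated protein, read 196.3, 94.2 and 211.9 at day 7 and 44, 7.4 and 22.3 at day 70 (log2 -2.84, SE 0.54, limma adjusted p = 0.09653, with the block 0.02108). Eln, elastin itself, read 849.6, 455.6 and 749 against 294.2, 218.6 and 281.8 (log2 -1.33, SE 0.31, limma adjusted p = 0.1833, with the block 0.04067). Of 21 tested genes of proteoglycans, elastic fibres and basement membrane, 12 were separated lower and 1 higher, beside 8.74% and 5.02% of all genes, with a median log2 difference of -0.56.

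Within that list the small proteoglycans were not alike. Lum read 1263, 970.9 and 990.2 at day 7 and 742.6, 549.4 and 600.1 at day 70 (log2 -0.77, limma adjusted p = 0.2507). Dcn, a collagen-binding proteoglycan and among the brightest matrix genes on these arrays, overlapped at 2428, 2902 and 2832 against 3029, 3243 and 2308 (log2 0.06).

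Matricellular proteins, which signal to cells rather than bear load, gave a median log2 difference of -0.39 over 20 genes, with 6 separated lower and 2 higher, beside 8.74% and 5.02% of all genes. Postn, made by activated fibroblasts, read 2132, 1985 and 2276 at day 7 and 523.2, 324.7 and 537.1 at day 70 (log2 -2.24, SE 0.54, limma adjusted p = 0.205). The spread within each group was small beside that difference. In a limma fit of the 2 tolerizing groups alone Postn was among the 3 probe sets called, and Frzb, Apod and the immunoglobulin sets were not. Sparc had a log2 difference of -1.61 and Tnc -2.25. Tnxb (log2 1.25) and the macrophage elastase Mmp12 (log2 1.22) were the 2 separated higher.

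Among fibroblast genes, Fap, a marker of activated fibroblasts, read 41.7, 40.8 and 45 at day 7 and 23.9, 14.1 and 16.4 at day 70 (log2 -1.26, limma adjusted p = 0.3461). Gsn, an actin-severing protein abundant in fibroblasts, went the other way at 516.6, 703.3 and 552 against 1052, 2439 and 1399 (log2 1.39, limma adjusted p = 0.359). Both were separated. Pdgfra, a general fibroblast marker, had a log2 difference of -0.26 and was not separated. Cnn1, a contractile protein of smooth muscle, had -2.15 and Acta2 had 0.55, both separated. None of the 12 fibroblast genes or the 14 smooth muscle genes was called. Of the fibroblast genes 4 were positive and 8 negative, with a median log2 difference of -0.32. In that list 4 were separated lower and 1 higher, beside 8.74% and 5.02% of all genes. Of the smooth muscle genes 5 were positive and 9 negative, with a median of -0.21 and 1 separated in each direction.

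Growth factors gave a median log2 difference of -0.19 over 26 genes, of which Frzb was the only one called. Igf2 read 236.4, 199.3 and 204 at day 7 and 100.2, 130.5 and 127.2 at day 70 (log2 -0.84, limma adjusted p = 0.2221). Igfbp3, which carries insulin-like growth factors, had a log2 difference of -1.40 and Igfbp7 -1.05, whereas Igfbp6 had 1.77. All 4 were separated. The transforming growth factor genes Tgfb1, Tgfb2 and Tgfb3 overlapped, at -0.09, 0.36 and -0.38.

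Cell division genes were lower at day 70 in most of the list without a call. Of 46 tested genes, 42 had a negative log2 difference, 16 were separated lower and 1 higher (8.74% and 5.02% of all genes), and the median was -0.40. Cks2, a subunit of cyclin-dependent kinases, read 90.4, 51.4 and 84.1 at day 7 and 44.2, 13.2 and 28.2 at day 70 (log2 -1.52, limma adjusted p = 0.689). Cdk1, which drives entry into mitosis, read 118.3, 84.9 and 121.9 against 69, 25.7 and 66.1 (log2 -1.13, limma adjusted p = 0.8828). With the Gapdh ratio as a covariate, the log2 difference of Cdk1 was 0.27. Top2a, Ccna2, Bub1, Rrm2 and Mcm4 were separated too, with log2 differences of -0.46 to -0.71. The exception was Ccnd1, a cyclin of early G1, at 232, 226.2 and 183.9 against 469.5, 275.5 and 281.3 (log2 0.64). With a floor of 40 the list median was -0.19.

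No gene of the leukocyte lists was called. Of 15 tested neutrophil and mast cell genes 4 were positive and 11 negative, 3 were separated lower and 0 higher, beside 8.74% and 5.02% of all genes, and the median log2 difference was -0.20. The alarmin S100a8 read 136.1, 119.7 and 316.8 at day 7 and 47.6, 37.2 and 54.5 at day 70 (log2 -1.91, limma adjusted p = 0.3452). S100a9 had a log2 difference of -1.86 and was separated as well, whereas Camp (-0.81), Il1b (-0.05) and Il1rn (0.48) overlapped. The neutrophil-attracting chemokine Cxcl5, of the chemokine list, had -1.63 and was separated. The cytotoxic protease Gzmb read 125.5, 167.8 and 165.5 against 80.9, 52.8 and 51.3 (log2 -1.33, limma adjusted p = 0.7635). The lymphocyte chemokine Xcl1 read 268.9, 133.9 and 168.9 against 86.5, 67.4 and 65.4 (log2 -1.33). In the 12 tested cytotoxic and NK cell genes 11 were negative, with a median of -0.33. Gzmb was the only one separated, beside 8.74% of all genes separated lower.

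T cell markers as a whole had a median log2 difference of -0.02 over 19 genes, 9 positive and 10 negative. Cd6, a surface receptor of T cells, read 32.4, 79.8 and 48.1 at day 7 and 103.8, 189.3 and 192.6 at day 70 (log2 1.64, SE 0.33, limma adjusted p = 0.1073). In isografts it was 175.5 to 213.8 at day 7 and 205.1 and 181.2 at day 70, so day 70 was nearer to the isografts than day 7 was. Cd4, the coreceptor of helper T cells, had a log2 difference of 0.58 and was separated, while Cd8a, that of cytotoxic T cells, overlapped at -0.68. At day 7 Cd8a read 159.7, 61.8 and 73.7 in tolerizing allografts but 2.5, 3.9 and 15.4 in isografts, where Cd6 was high. At day 70 Cd8a read 3.2 and 2.4 in isografts. The Cd6 probe set therefore did not follow Cd8a across the grafts. In the 13 tested regulatory and inhibitory T cell genes 8 were positive and 5 negative, with a median of 0.14. The inhibitory receptors Ctla4 (log2 1.23) and Lag3 (log2 0.58) were the 2 separated higher, beside 5.02% of all genes, and Ctla4 was dim, at 2.4, 10.2 and 15.2 against 57.8, 16.8 and 24.6. The invariant chains Cd3d, Cd3e and Cd3g lay at -0.25, -0.31 and 0.40 and overlapped.

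Macrophage genes differed little between the days. The median log2 difference over 34 genes was -0.15, with 3 separated lower and 0 higher. That is 8.82% lower, near the 8.74% of all genes. Adgre1, Cd68 and Csf1r, which define macrophages, had log2 differences of 0.03, -0.13 and -0.14. Hmox1, which degrades haem, read 714.2, 471 and 719.5 at day 7 and 336.9, 238.4 and 379.3 at day 70 (log2 -0.997, limma adjusted p = 0.738). Of 8 tested genes of alternative activation 3 were positive and 5 negative, with a median of -0.26 and a highest log2 difference of 0.50. Chil3 had the lowest, -1.73, and was the only one of the 8 separated, beside 8.74% of all genes separated lower. In the 8 dendritic cell genes 3 were separated higher, Itgax (log2 0.65), Cd83 (0.58) and Ly75 (0.97), beside 5.02% of all genes, and the median was 0.38.

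Lists of genes induced by interferon gave small median differences between the days. The median log2 difference was -0.05 for 10 interferon-inducible GTPases and -0.03 for 13 antiviral genes. Of the GTPases 2 were separated lower and 0 higher, beside 8.74% and 5.02% of all genes. Of the antiviral genes these were 1 and 0. Igtp, a GTPase of cell-autonomous immunity, read 1632, 1943 and 1705 at day 7 and 1386, 1752 and 1702 at day 70 (log2 -0.13), beside 105.7 to 219.9 in isografts at day 7. Gbp2b read 1276, 1308 and 1374 against 858.4, 812.2 and 807.7, where the groups were apart (log2 -0.68, limma adjusted p = 0.5975). Gbp2 was the other GTPase separated, at 1316, 1081 and 1086 against 950.3, 829.5 and 892 (log2 -0.38). Ifi202b, which is in neither list, read 74.7, 53.3 and 78.8 against 22.9, 29.7 and 34.1 and was separated (log2 -1.25, limma adjusted p = 0.3129). In class II presentation the median over 13 genes was 0.23. H2-Eb1 had a log2 difference of 0.64 and overlapped, and Cd74, the class II invariant chain, was separated, at 4270, 2710 and 4017 against 5851, 4692 and 4350. For class I and peptide loading the median over 14 genes was 0.06. B2m and Tap2 were the 2 separated higher and Pdia3 (log2 -0.95) the 1 lower, beside 5.02% and 8.74% of all genes.

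Genes of heart muscle and its fuel use had positive medians at day 70 with no member called. For fatty acid uptake and oxidation, the main fuel pathway of adult heart, 24 of 27 genes were positive, 3 were separated higher and 0 lower (5.02% and 8.74% of all genes), and the median log2 difference was 0.46. Hadh, an enzyme of beta-oxidation, read 150, 256.7 and 155.3 at day 7 and 213.1, 605.8 and 536.8 at day 70, with overlap (log2 1.18, SE 0.34, limma adjusted p = 0.3583). Acaa2, which catalyses the last step of that cycle, read 771.5, 1461 and 968 against 1642, 2799 and 1751 (log2 0.96, limma adjusted p = 0.479). Slc27a1, a fatty acid transporter, was dim at 10.6, 16.7 and 15.1 against 57.5, 81.6 and 21.2 (log2 1.72).

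For the tricarboxylic acid cycle 19 of 22 genes were positive, with a median of 0.33. Ogdh (log2 0.90) was the only one separated, beside 5.02% of all genes separated higher and 8.74% lower. For the respiratory chain and ATP synthase 32 of 37 were positive, with a median of 0.18 and 0 separated, beside the same shares. The single arrays overlapped: the fatty acid median relative to day 7 was -0.35, 0.28 and -0.01 on the arrays of day 7 and -0.09, 0.97 and 0.54 on those of day 70. Array 1 was the lowest for this list in both groups, and each day-70 array lay above the day-7 array of the same number.

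Sarcomere genes had a median log2 difference of 0.30 over 24 genes, 17 positive and 7 negative, with 4 separated higher and 1 lower, beside 5.02% and 8.74% of all genes. Calcium handling and conduction genes had 0.13 over 20 genes, 7 of them negative, with 1 separated higher and 0 lower. Myh7, the slow myosin heavy chain, read 2166, 3462 and 3924 at day 7 and 4976, 7216 and 5959 at day 70 (log2 0.95, limma adjusted p = 0.934). Actn2, Mybpc3 and Myom2 were the others separated higher, at 0.92, 0.44 and 0.58, and Tpm1 was lower at -0.70. Myh6, the fast adult isoform, had 0.82 and overlapped. Nppa, the atrial natriuretic peptide, was separated at 1489, 2034 and 2027 against 2668, 2098 and 2570 (log2 0.41). Of 12 tested natriuretic peptides and cardiac transcription factors 10 were positive and 2 negative, with a median of 0.27. In that list 3 were separated higher, among them Nppa and Mef2d (log2 0.72), beside 5.02% of all genes. Hand1 (log2 -1.40) was the 1 separated lower, beside 8.74%.

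**Figure D4:**
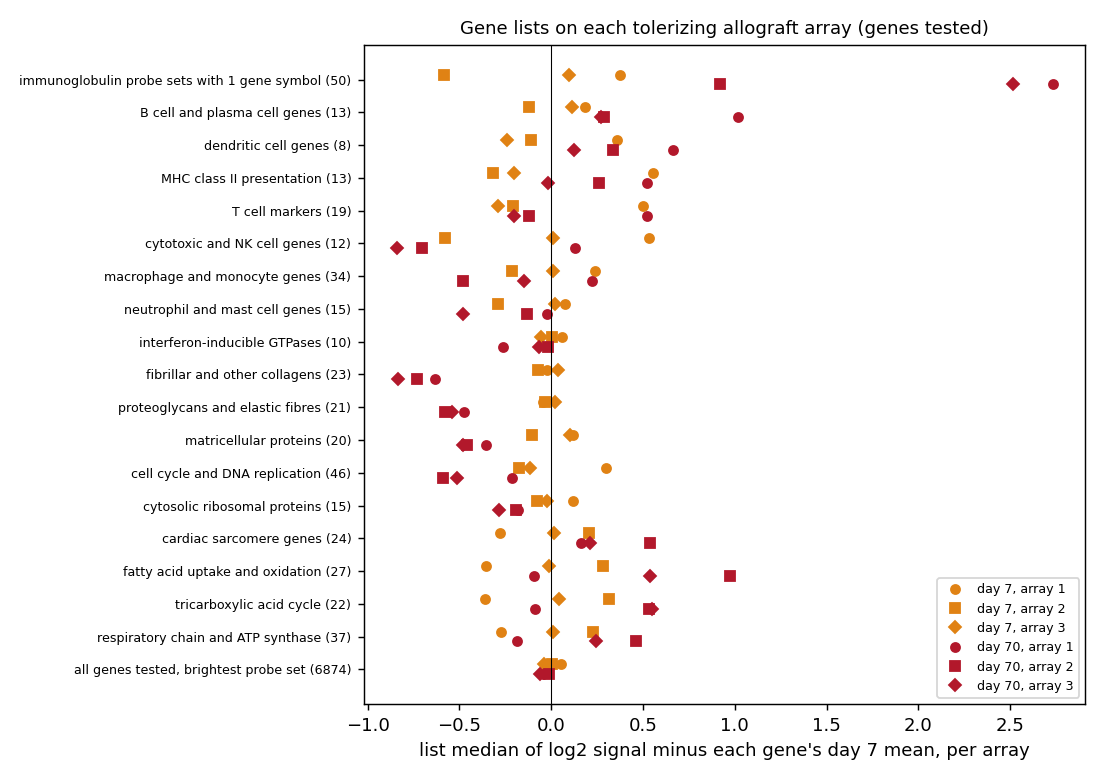
Median over each gene list of the log2 signal minus the gene's day-7 mean, for each of the 6 tolerizing allograft arrays. The immunoglobulin list reaches 2.73, 0.92 and 2.52 on the arrays of day 70, the collagen list -0.63, -0.73 and -0.83, and the arrays of both days are mixed for the T cell, macrophage and respiratory chain lists.

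Of 21 tested genes of oxidative and metal stress 8 were positive and 13 negative, 4 were separated lower and 1 higher (8.74% and 5.02% of all genes), 0 were called, and the median log2 difference was -0.13. Gsta4, a glutathione transferase, was the one separated higher (log2 0.66). Mt2, a metallothionein that binds zinc and copper, read 956.2, 1905 and 3635 at day 7 and 873, 634.1 and 748.7 at day 70 (log2 -1.33, limma adjusted p = 0.3342). Its spread at day 7 was wide and the groups were still apart. Cytosolic ribosomal protein genes had a median log2 difference of -0.25 over 15 genes, with 5 separated lower and 0 higher, beside 8.74% and 5.02% of all genes. Heat shock and unfolded protein genes had 0.01 over 19 genes.

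Single genes outside the lists also stood out by size, and those given here are examples. Abi1, an adaptor in actin remodelling, read 11.7, 5.2 and 8.8 at day 7 and 56.5, 46 and 55.4 at day 70 (log2 2.22, SE 0.44, limma adjusted p = 0.1073). Pptc7, a mitochondrial protein phosphatase, read 123.8, 129.8 and 151.3 against 210.8, 352 and 424.9 (log2 1.23, limma adjusted p = 0.1582). Vtn, the adhesive plasma protein vitronectin, read 5.3, 13 and 2 against 37.4, 19.9 and 28.5 (log2 1.25). In isografts Vtn was 53.6 to 69.3 over both days, above every tolerizing allograft. Tfpi2, an inhibitor of serine proteases in the matrix, read 40.2, 33.8 and 68.2 against 21.7, 11.3 and 14.6 (log2 -1.56, limma adjusted p = 0.1463).

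Isografts over the same days gave 0 called probe sets (limma, 485 or 5.11% at an unadjusted p under 0.05), and the difference between the 2 time changes also gave 0 (370 or 3.90%). No gene described here is therefore shown to change differently in tolerizing allografts and isografts. For the brightest Igkv10-96 probe set the difference of the time changes was 4.45 on the log2 scale, with a 95% interval of 3.00 to 5.90 (limma adjusted p = 0.1198). Isografts read 16.5, 24.9 and 16.2 at day 7 and 7.1 and 1.6 at day 70 for it. Over the 50 immunoglobulin probe sets the isograft median was -0.29, and 33 of them had an unadjusted p under 0.05 for a larger change in tolerizing allografts, beside 2.24% of all probe sets. However, the 50 were listed after the values were seen. Of them 4 had no day-7 tolerizing array above the floor and 15 had 1 or 2, so day 70 helped them pass the filter. All 3 day-70 tolerizing arrays lay above all 5 isograft arrays for 29 of the 31 separated probe sets. Those 31 were picked because their day-70 arrays were high, and the share over all probe sets was not counted. Neither this count nor that of the 33 is therefore a test of a difference between the grafts.

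Most matrix genes were also lower at day 70 by their fitted value in isografts, with none called. All 23 collagen genes had a negative log2 difference there, as did 17 of the 21 genes of proteoglycans and elastic fibres and 15 of the 20 of matricellular proteins. Frzb had a log2 difference of -1.25 there and Apod -1.47, and the differences between the time changes were -1.55 and -0.50 (limma adjusted p = 0.9998 for both). Col1a1, Col1a2 and Col3a1 had isograft log2 differences of -1.28, -1.64 and -1.12, and the collagen list a median of -0.52. The isograft values were nearer 0 for Mfap4 (-0.36) and Col8a1 (-0.33), and they had the opposite sign for Tnc (0.27) and Mmp12 (-0.27). For fatty acid oxidation the isograft median was 0.28, and for the tricarboxylic acid cycle 0.35. Other lists had medians further apart: macrophage genes had -0.74 in isografts and -0.15 in tolerizing allografts, interferon-inducible GTPases -0.56 and -0.05, class II genes -0.32 and 0.23, and cell cycle genes -0.07 and -0.40. Of the red blood cell genes, 5 tested, the medians were -1.15 and -0.04, with summed signals from 3750 to 11820 on the tolerizing arrays. Their part in the other results was not tested.

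**Figure D5:**
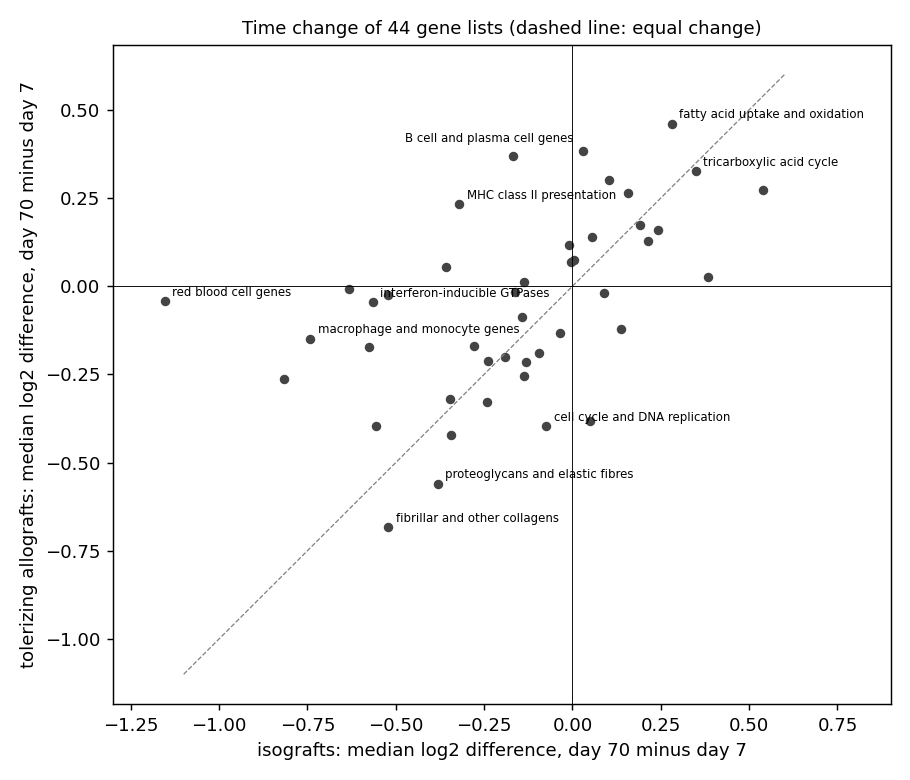
Median log2 difference, day 70 minus day 7, of 44 gene lists in isografts (horizontal axis) and tolerizing allografts (vertical axis), with a dashed line of equal change. Of the 44 lists, 25 lie above the line and 19 below, 12 are positive in both kinds of graft and 23 negative in both.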

How the data were processed

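Each heart was measured on 1 MG-U74Av2 oligonucleotide array. The deposited table holds signal intensity on a linear scale, per the values themselves: none is negative, and the trimmed mean (2% left off each end) is 100.1 on every array. The sources used here do not name the authors' software or scaling. No further scaling was applied. Signals under 11 were set to 11 and log2 was taken. All 14 arrays, in 5 groups, were fitted together by lmFit of limma 3.58.1 (R 4.3.3), followed by contrasts and by eBayes with trend on. There were 9 residual degrees of freedom and 4.91 from the prior. Two-sided p-values were adjusted after Benjamini and Hochberg over the 9483 probe sets, and 0.05 was the threshold for a call. The fit was tested on simulated data.

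Gene symbols are those of the array platform's annotation, brought up to date with a RefSeq table by gene ID: 10833 probe sets had 1 gene (10817 of them found in that table), 396 several and 1193 none. The brightest probe set stands for a gene in lists. Groups are called separated where all 3 arrays of day 70 lie above or below all 3 of day 7. The comparison, the 45 gene lists (732 of 974 entries tested) and the rule for naming genes were chosen with earlier results of these data known. The rule names all called genes, up to 15 rises and 15 falls of at least 1 on the log2 scale that were separated and had the smallest p, for each list the 4 genes of smallest p at most, H2-Ea, and the 6 highest and 6 lowest differences between time changes. Among genes not called, 45 rises and 78 falls met the rule of size and separation. Not every gene that the rule names is described here. Other genes in the text were chosen after their values were seen.

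The replicate numbers of the labels were shared by the groups. Deviations from the group means correlated at 0.353, 0.265 and 0.282 between arrays of the same number and at -0.298 to 0.037 between others, so the numbers were taken to pair the arrays, from the data and not from a statement in the labels. Numbers from accession order split the arrays into 2 runs, which the 18S control separates. Alternatives were other floors, a pseudocount, 2 scalings, other filters, settings of limma, blocks for the replicate number and the run, RNA quality covariates and leaving out each array. Precision is limited by the small number of arrays.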

Additional observations from a re-analysis of the deposited data

How the results depend on the processing

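With 7 probe sets called for day 70 against day 7 in tolerizing allografts, the count was 2 with a floor of 5, 3 with a floor of 40, 0 with no filter, 4 with a filter on 3 of 14 arrays, 0 with a filter on all 6 arrays, 52 with array weights (whose estimation stopped before it converged), 3 in a fit of the 2 groups only, 3 with the accession run as a block, 0 in the second accession run alone and 0 when the beta-actin or the Gapdh ratio was added to the fit (the latter chosen after seeing the data). It was 1 to 40 on leaving out each array. With quantile normalization and with median scaling the count was 5, all higher, so Frzb and Apod were not called. The filter on all 6 arrays removes 6 of the 7 probe sets before testing, and the cause of the other moves was not tested. The replicate block gave 19 calls, which include all 7, and in the isografts and the difference of time changes it left the counts at 0. Isografts had 0 calls, 12 with a floor of 40 and 0 to 26 on leaving out each array. The difference of the time changes had 0, 13 with a floor of 40 and 0 to 2 on leaving out each array. Of 80 probe sets followed by name, 4 changed sign in some setting. With beta-actin as the covariate these were Ms4a1 (-0.048), Dcn (-0.31) and Igtp (0.080), and with the Gapdh ratio Ms4a1 (-0.032), Dcn (-0.33), Cdk1 (0.27) and Igtp (0.15). Without 1 array at a time Dcn ranged from -0.037 (without day-70 array 2) to 0.21, and it was -0.018 without day-7 array 1. Of 46 list medians, 30 kept their sign in every setting tried for lists, among them the immunoglobulin, collagen, cell cycle, fatty acid oxidation and sarcomere lists. The RNA quality covariates were not among those settings, so whether the list medians keep their sign with them was not tested.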
